A study of Homo sapiens with 9 samples.

Results

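The genes described here encode the classical and non-classical MHC class I heavy chains HLA-B, HLA-C, HLA-E and HLA-F, their light chain B2M, the peptide transporter TAP1 and TAP2, the loading factor TAPBP, and MICB, a class I-like stress ligand. They were chosen by name as calreticulin's partners in peptide loading and their relatives, and they are 9 of 18239 genes measured on Affymetrix arrays. Each gene was read from the probe set that carries its symbol alone and has the highest mean over the 9 arrays.

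All cells were K562, an established human chronic myeloid leukaemia line. The groups were K562 transduced with the Del52 form of calreticulin (CALR), a deletion, K562 transduced with the Ins5 form, an insertion, and K562 transduced with wild-type CALR, with 3 arrays each. Every group carried a retroviral construct and its NGFR selection marker, given in 4 rounds of infection at 12 h intervals, followed by 36 h of culture and magnetic selection. NGFR-positive cells made up more than 90% when checked 48 h after selection, and RNA came from 100000 cells per sample. The labels name no change to the CALR gene of K562 itself, no untransduced cells were analysed here, and the labels do not say whether the 3 samples of a group were separate transductions. P-values therefore measure only the spread between these samples, which may be technical.

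Class I molecules carry peptides made in the cytosol to the cell surface, where T cells inspect them. The transporter formed by TAP1 and TAP2 moves those peptides into the endoplasmic reticulum, and tapasin, the product of TAPBP, holds the empty heavy chain beside it. Calreticulin binds the sugar of the heavy chain and, with the disulfide isomerase PDIA3, completes the loading complex. K562 is known for very little class I at its surface and is a standard target of natural killer cells, which also see MICB through the receptor NKG2D. RNA levels do not show surface protein.

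The stretches before the start sites of 6 of these genes are printed because the members described below either belong to pairs that varied together over the arrays (HLA-B, HLA-C, TAP2, TAPBP), ran against the first principal component of the arrays (B2M) or had the smallest p of any member (MICB). Each line gives the 250 bases before a RefSeq gene start, 5′ to 3′ on the strand of the gene, from the GRCh38.p14 table. K562's own alleles may differ from this reference. Capitals mark matches on either strand to the interferon response letters (GAAA, any 2 bases, GAAA), to the NF-kappaB letters (GGG, any 2 bases, TT, any base, CC) or, in MICB alone, to the heat shock letters GAANNTTC. Overlapping matches share letters.
HLA-B, chr6:31357180-31357429, minus strand: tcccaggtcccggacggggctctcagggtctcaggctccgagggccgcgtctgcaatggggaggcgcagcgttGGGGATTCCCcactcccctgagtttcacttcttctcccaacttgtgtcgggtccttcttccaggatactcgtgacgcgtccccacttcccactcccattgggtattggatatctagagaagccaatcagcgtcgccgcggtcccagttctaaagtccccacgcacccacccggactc
HLA-C, chr6:31272093-31272342, minus strand: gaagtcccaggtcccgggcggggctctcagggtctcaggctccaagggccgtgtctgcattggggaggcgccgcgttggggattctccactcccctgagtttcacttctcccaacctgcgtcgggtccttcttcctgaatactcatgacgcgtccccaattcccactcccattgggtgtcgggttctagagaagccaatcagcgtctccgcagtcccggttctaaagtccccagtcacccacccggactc
B2M, chr15:44711267-44711516, plus strand: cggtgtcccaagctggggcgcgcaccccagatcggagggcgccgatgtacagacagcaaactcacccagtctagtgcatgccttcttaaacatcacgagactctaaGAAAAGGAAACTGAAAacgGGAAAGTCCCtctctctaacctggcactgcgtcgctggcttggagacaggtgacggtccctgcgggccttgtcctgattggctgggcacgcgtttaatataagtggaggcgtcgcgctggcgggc
TAP2, chr6:32838740-32838989, minus strand: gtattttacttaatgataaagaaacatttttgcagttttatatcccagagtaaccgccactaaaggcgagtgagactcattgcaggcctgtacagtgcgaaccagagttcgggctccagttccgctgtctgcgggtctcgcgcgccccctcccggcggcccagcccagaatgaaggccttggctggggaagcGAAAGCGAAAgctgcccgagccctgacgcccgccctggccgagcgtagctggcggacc
TAPBP, chr6:33314079-33314328, minus strand: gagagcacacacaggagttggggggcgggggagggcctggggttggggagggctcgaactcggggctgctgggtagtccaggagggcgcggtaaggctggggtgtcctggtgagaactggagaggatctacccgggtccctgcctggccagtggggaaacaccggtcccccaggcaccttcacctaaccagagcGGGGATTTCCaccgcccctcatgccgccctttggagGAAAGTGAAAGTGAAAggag
MICB, chr6:31497895-31498144, plus strand: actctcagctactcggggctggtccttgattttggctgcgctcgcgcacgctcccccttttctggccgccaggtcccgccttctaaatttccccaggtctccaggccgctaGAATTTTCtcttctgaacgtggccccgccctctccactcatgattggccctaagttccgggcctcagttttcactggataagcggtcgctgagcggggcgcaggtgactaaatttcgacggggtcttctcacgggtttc

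Windows were found for 8 of the 9 genes, and HLA-E is named only. In windows of 250 bases before and 50 after the start, the interferon response letters occurred in 5 of the 8 (HLA-F, B2M, TAP1, TAP2 and TAPBP) and in 3.57% of all 35116 RefSeq windows. The NF-kappaB letters occurred in 4 of the 8 (HLA-B, B2M, TAP1 and TAPBP) and in 5.68% of all windows. The plain CCAAT letters occurred in 6 of the 8 and in 34.6% of all windows, and the cyclic AMP response core TGACG in 4 of the 8 and in 24.6%. The heat shock letters occurred in 1 of the 8, MICB, and in 6.77% of all windows. TAP1 has a second window, in which none of these letter strings was found. The HLA-B and HLA-C stretches shown differ in that the HLA-B stretch holds the NF-kappaB letters, with their first base at -177, and the HLA-C stretch does not hold those letters in this window. A match is a description of letters and not a measured binding site.

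Array medians lay between 3.73 and 3.76 on the authors' log2 RMA scale, and correlations between arrays over genes ran between 0.974 and 0.998. Over all genes 70.5% of the variance lay along the first principal component, with wild type 2 and wild type 3 at its opposite ends. In every comparison 0 of 18239 genes passed limma at a Benjamini-Hochberg adjusted p under 0.05. The CALR probe set with the highest mean averaged 7.42 ± 0.18 in Del52 cells, 7.40 ± 0.12 in Ins5 cells and 7.57 ± 0.24 in wild-type cells (mean ± SD, n = 3). Of erythroid markers, which K562 is known to express, 8 of 9 measured lay above the highest control described next. Of lymphoid markers 0 of 14 were above it, of monocyte and granulocyte markers 1 of 12 and of fibroblast and epithelial markers 4 of 13. These counts use the mean over 9 arrays. By the highest of the 3 group means, 5030 of all 18239 genes lay above it. In bulk RNA, fewer cells of a type and less RNA per cell cannot be told apart.

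The levels of the members were set against the 23 antigenomic control probe sets, whose probes match no human sequence and hold 3 to 25 G or C bases of 25. Control means spread between 1.56 and 6.35, the highest being the all-GC set, with 4.18 the next highest and a median of 2.01. B2M, HLA-E, TAPBP and MICB lay above all 23 controls on all 9 arrays. TAP2, HLA-C and TAP1 lay above 22, HLA-B above 21 and HLA-F above 19. TAP2 passed the highest control on 2 of 9 arrays, and HLA-C, TAP1, HLA-B and HLA-F on none. By the highest of the 3 group means, 5 of the 9 members lay above that control, as did 5030 of all 18239 genes. The control span is a scale for signal, since a gene's probes differ from control probes in base content, and levels of different genes were not compared with each other.

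**Figure D1:**
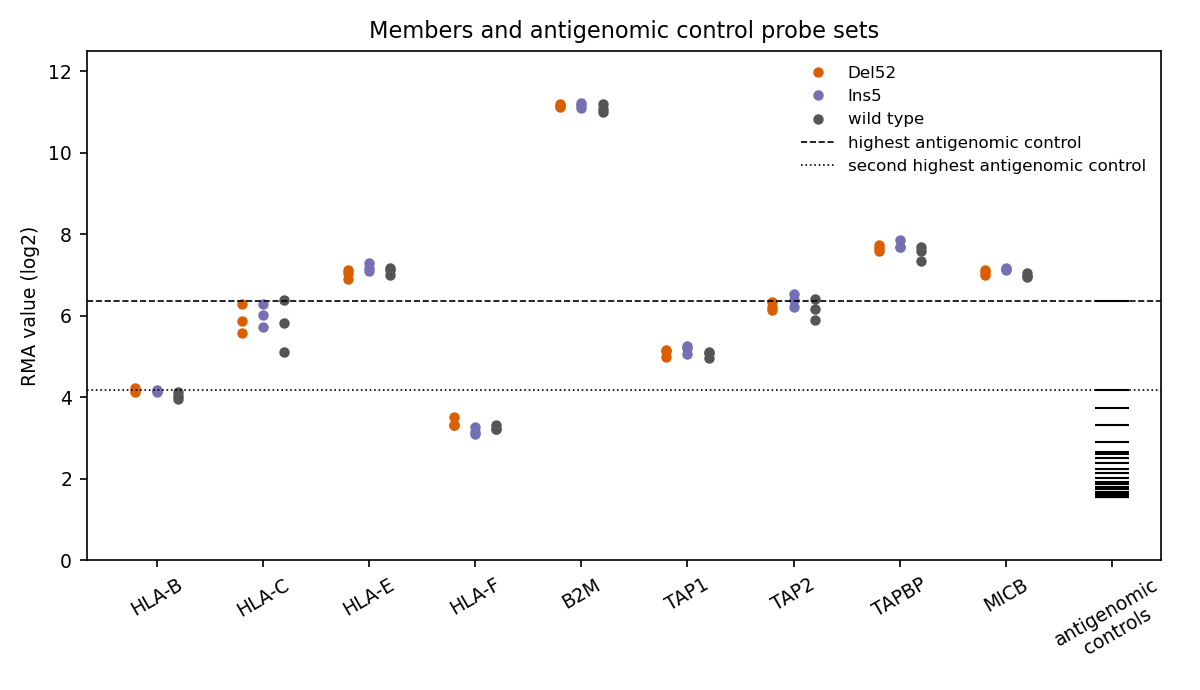
Level of each member on the authors' log2 RMA scale, beside the 23 antigenomic controls. B2M, HLA-E, TAPBP and MICB stand above every control, and TAP2, HLA-C, TAP1, HLA-B and HLA-F have means below the highest control.

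The chosen probe sets of the heavy chains differed in how steady they were. HLA-B, a classical heavy chain, read 4.18, 4.13 and 4.22 in Del52 cells, 4.15, 4.12 and 4.18 in Ins5 cells and 4.04, 4.12 and 3.97 in wild-type cells. Every Del52 array lay above every wild-type array, with a gap of 0.0056, and Ins5 overlapped with both. HLA-C, the other classical chain measured, read 5.87, 5.58 and 6.30 in Del52 cells, 6.01, 5.73 and 6.29 in Ins5 cells and 5.82, 6.39 and 5.11 in wild-type cells. The 3 wild-type arrays held both the highest and the lowest HLA-C value, a span of 1.28 or 2.43-fold, and all groups overlapped. The other HLA-C sets had wild-type SDs of 0.12 and 0.03, beside 0.64 for the chosen set.

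HLA-E, which presents leader peptides of other class I chains to the NK receptor NKG2A, read 6.89, 7.05 and 7.13 in Del52 cells, 7.30, 7.09 and 7.17 in Ins5 cells and 7.12, 7.16 and 7.00 in wild-type cells. Its groups overlapped. HLA-F, a chain with restricted surface expression, read 3.32, 3.33 and 3.51 in Del52 cells, 3.28, 3.16 and 3.10 in Ins5 cells and 3.22, 3.33 and 3.21 in wild-type cells. Every Del52 array lay above every Ins5 array, with a gap of 0.039, while wild type overlapped with both.

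B2M, the light chain that class I needs to fold, read 11.14, 11.18 and 11.12 in Del52 cells, 11.18, 11.21 and 11.08 in Ins5 cells and 11.08, 11.00 and 11.19 in wild-type cells. The 9 values lay close together and the groups overlapped. MICB, the NKG2D ligand, read 7.12, 7.07 and 7.00 in Del52 cells, 7.11, 7.18 and 7.16 in Ins5 cells and 6.97, 6.95 and 7.05 in wild-type cells. Every Ins5 array lay above every wild-type array, with a gap of 0.064, and Del52 overlapped with both.

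Of the transporter and its tether, TAP1 read 4.98, 5.14 and 5.16 in Del52 cells, 5.27, 5.22 and 5.06 in Ins5 cells and 5.08, 4.97 and 5.10 in wild-type cells. TAP2 read 6.22, 6.14 and 6.34 in Del52 cells, 6.38, 6.22 and 6.53 in Ins5 cells and 6.17, 6.41 and 5.90 in wild-type cells. TAPBP read 7.66, 7.58 and 7.73 in Del52 cells, 7.69, 7.67 and 7.87 in Ins5 cells and 7.59, 7.69 and 7.34 in wild-type cells. For all of these genes the groups overlapped, and for TAP2 and TAPBP the lowest array was wild type 3, as it was for HLA-B and HLA-C.

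**Figure D2:**
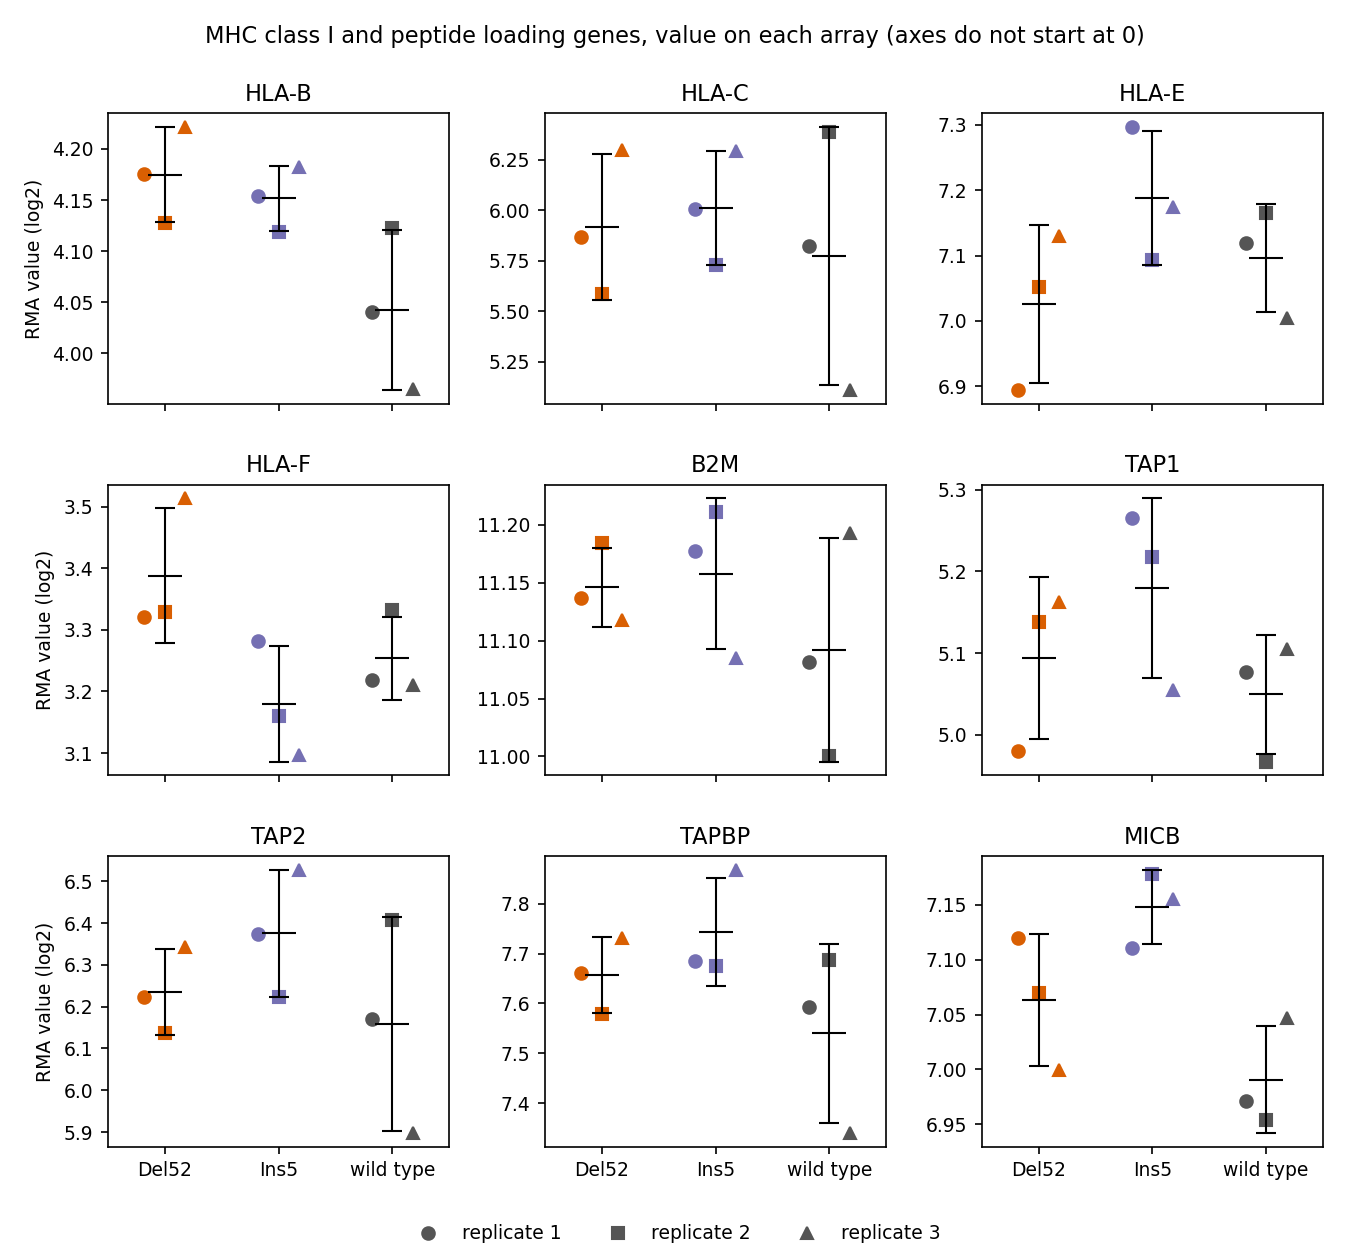
Values of the 9 members on the authors' log2 RMA scale, by group (Del52, Ins5, wild type), with replicate 1 as circles, 2 as squares and 3 as triangles and the bar giving the mean ± SD of 3 arrays. Axes do not start at 0; HLA-B, MICB and HLA-F each have 1 pair of groups that do not overlap, and HLA-C varies most within wild type.

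The first comparison asked how the deletion form changes these genes, as Del52 against wild type. No member passed limma after Benjamini-Hochberg adjustment, and 8 of 9 had a positive log2 difference, against 54.6% of all genes. The median difference was 0.08 for the members and 0.01 for all genes. HLA-B had the smallest p, with 4.18 ± 0.05 in Del52 cells and 4.04 ± 0.08 in wild-type cells (mean ± SD, n = 3), a log2 difference of 0.13 ± 0.05 (SE) and a limma adjusted p of 0.667. It was the only 1 of 9 members with an unadjusted limma p under 0.05 (0.0338), where 7.05% of all genes had one. It was also the only 1 of 9 with every Del52 array higher, where 6.23% of all genes did so, and no member had every Del52 array lower, against 4.36%.

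HLA-F differed by 0.13 ± 0.07 (limma adjusted p = 0.785) and TAPBP by 0.12 ± 0.10 (adjusted p = 0.903). HLA-C had a difference of 0.14, with a 95% interval between -0.62 and 0.90, since its wild-type arrays were far apart. The remaining differences were 0.08 for TAP2, 0.07 for MICB, 0.05 for B2M, 0.04 for TAP1 and -0.07 for HLA-E. The 95% intervals of these 5 genes all hold 0. Without wild type 3, HLA-C differed by -0.19, TAP2 by -0.05 and TAPBP by 0.02, and without wild type 2 the median of the members was 0.17.

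The second comparison set the insertion form against wild type. It shares the wild-type arrays with the first, so the directions of the 2 comparisons are not independent. No member passed, and 8 of 9 were higher in Ins5, against 59.6% of all genes, with a median of 0.13 for the members and 0.02 for all genes. MICB averaged 7.15 ± 0.03 in Ins5 cells and 6.99 ± 0.05 in wild-type cells (mean ± SD, n = 3), a log2 difference of 0.16 ± 0.05 (SE), or 1.12-fold, with a 95% interval of 1.03 to 1.20-fold and a limma adjusted p of 0.581. It was the only 1 of 9 members with an unadjusted limma p under 0.05 (0.0113), against 7.41% of all genes. Every Ins5 array was higher for MICB alone among the members, against 8.16% of all genes, and for no member was every Ins5 array lower, against 3.3%.

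TAPBP averaged 7.74 ± 0.11 in Ins5 cells and 7.54 ± 0.18 in wild-type cells, a difference of 0.20 ± 0.10 (SE, limma adjusted p = 0.709). TAP2 differed by 0.22 ± 0.13 (adjusted p = 0.793) and TAP1 by 0.13 ± 0.08 (adjusted p = 0.779). HLA-B differed by 0.11, HLA-E by 0.09 and B2M by 0.07. HLA-C differed by 0.24, with a 95% interval between -0.52 and 1.00, and HLA-F by -0.07. Without wild type 3, HLA-C differed by -0.10, TAP2 by 0.09 and TAPBP by 0.10, and without wild type 2 TAP2 differed by 0.34. With array weights, which gave wild type 1 a weight of 67.0 against 0.24 to 1.82 for the other arrays, MICB (limma adjusted p = 0.00889), HLA-B (0.0217) and TAP2 (0.0490) passed in Ins5 against wild type and HLA-B (0.0212) in Del52 against wild type, among 4017 and 3190 genes that passed there.

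The third comparison set Del52 against Ins5. No member passed, and 2 of 9 were higher in Del52, against 45.4% of all genes, with a median of -0.09 for the members and -0.01 for all genes. HLA-F averaged 3.39 ± 0.11 in Del52 cells and 3.18 ± 0.09 in Ins5 cells (mean ± SD, n = 3), a log2 difference of 0.21 ± 0.07 (SE, limma adjusted p = 0.841). It was the only 1 of 9 members with an unadjusted limma p under 0.05 (0.0226), against 5.77% of all genes. Every Del52 array was higher for HLA-F alone, against 3.81% of all genes, and for no member was every Del52 array lower, against 6.28%.

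HLA-E averaged 7.03 ± 0.12 in Del52 cells and 7.19 ± 0.10 in Ins5, a difference of -0.16 ± 0.08 (limma adjusted p = 0.911). The loading genes differed by -0.14 for TAP2, -0.09 for TAP1 and -0.09 for TAPBP, and MICB by -0.09. HLA-C differed by -0.09, HLA-B by 0.02 and B2M by -0.01. In the moderated F test over all 3 groups the smallest member p was that of MICB (unadjusted 0.0330, adjusted 0.676), where 7.23% of all genes had an unadjusted p under 0.05 and 0 passed after adjustment.

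**Figure D3:**
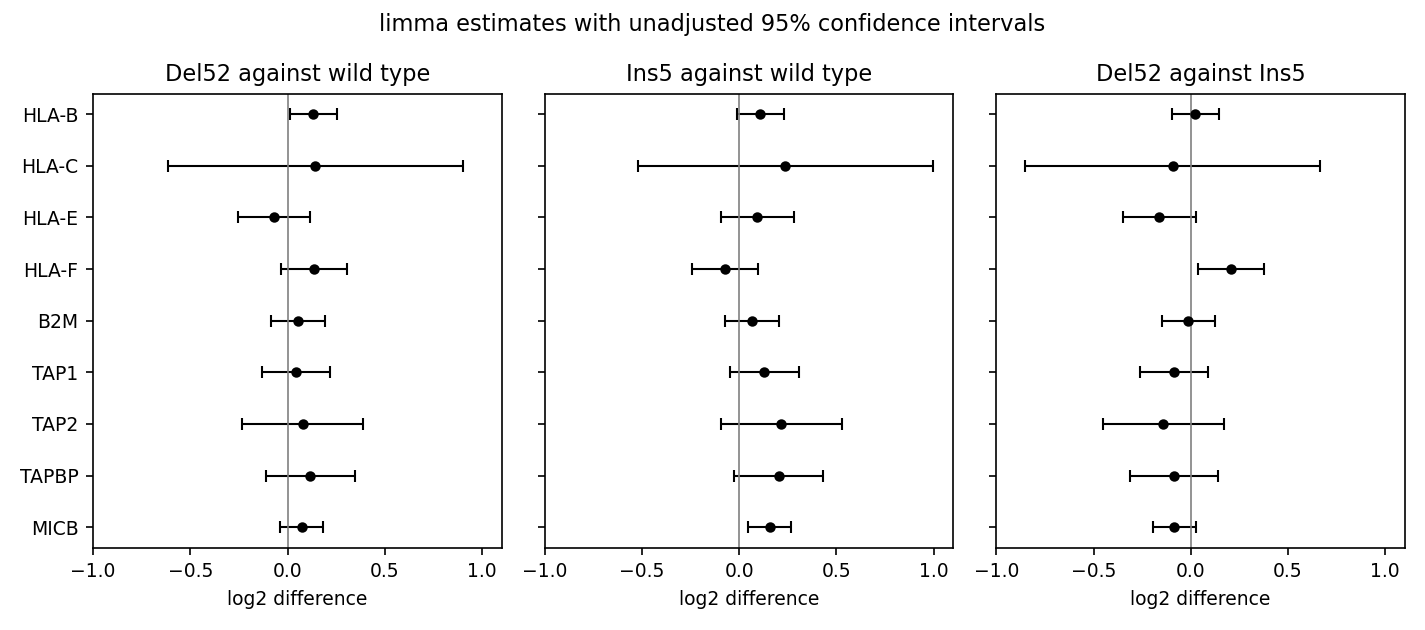
Log2 difference of each member in the 3 comparisons, with unadjusted 95% confidence intervals of the limma fit. Intervals that leave out 0 are those of HLA-B for Del52 against wild type, MICB for Ins5 against wild type and HLA-F for Del52 against Ins5, and HLA-C has the widest.

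Several probe sets read each gene, and they bear on these values. The 9 genes had 45 probe sets with their symbol alone. Of these, 22 carry the Affymetrix suffix _x_at, for sets able to hybridise to related sequences, as do 5 of the 9 chosen sets. Another 4 sets, of HLA-E and B2M, carry the suffix _s_at and are not counted among the 22. In Del52 against wild type 35 of 45 sets were higher in Del52, in Ins5 against wild type 27 of 45 were higher in Ins5, and in Del52 against Ins5 21 of 45 were higher in Del52. No set passed after adjustment over all 45253 sets. The 8 B2M sets gave differences of 0.03 to 0.06 in Del52 against wild type and correlated at 0.79 to 0.97 with the chosen set.

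Other genes were less even. The 3 HLA-B sets ran between -0.13 and 0.13 in Del52 against wild type, and the 10 HLA-F sets between -0.11 and 0.21 in Del52 against Ins5, where 3 were higher and 7 lower. The HLA-C sets other than the chosen one correlated with it at -0.54 and -0.48 over the 9 arrays, so the spread of HLA-C among wild-type arrays rests on 1 probe set. The 3 other MICB sets gave 0.15, 0.01 and -0.03 in Ins5 against wild type, beside 0.16 for the chosen set, and correlated with it at -0.31 to 0.18. In the same comparison 3 of 5 TAPBP sets, 2 of 4 TAP2 sets and 1 of 2 TAP1 sets were lower in Ins5, although the chosen sets were higher. With the mean of all probe sets of a gene in place of the chosen one, HLA-F differed by -0.02 in Del52 against Ins5. The median of the members was then 0.03 in Ins5 against wild type and 0.00074 in Del52 against Ins5. Whether cross-hybridisation between HLA genes has a part in these values was not tested.

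**Figure D4:**
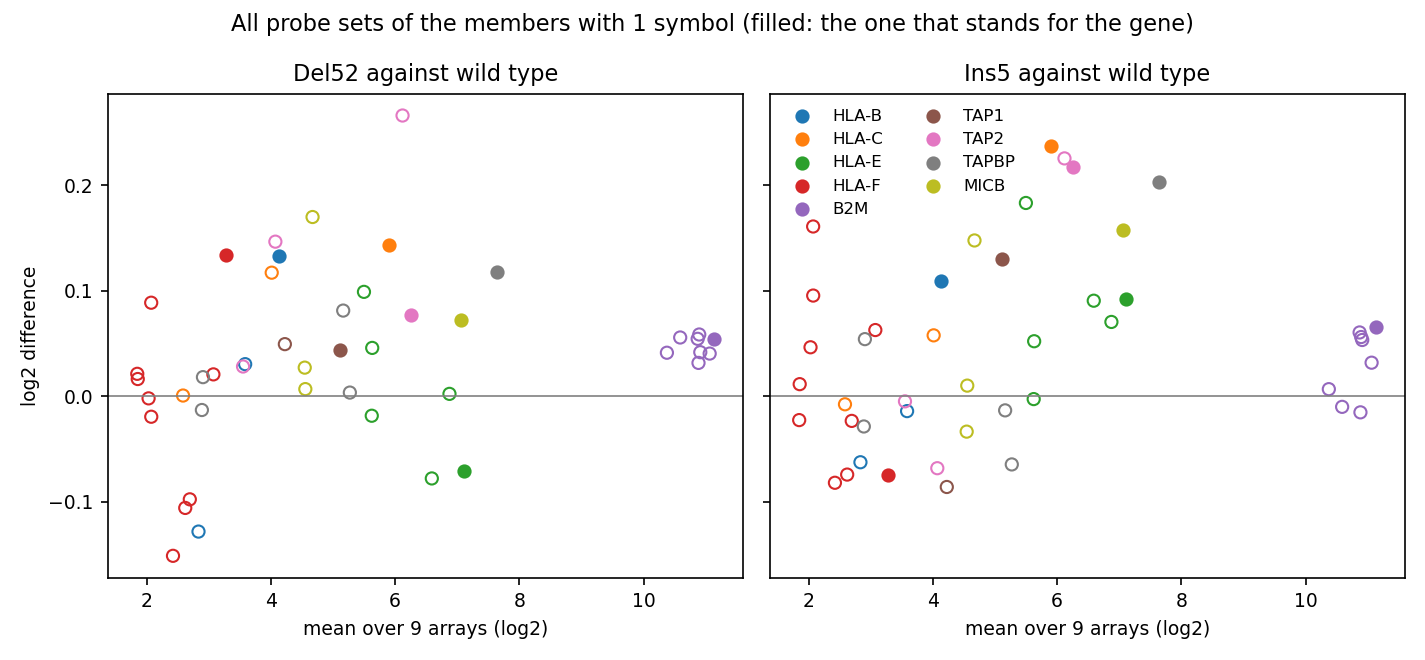
Log2 differences of all 45 probe sets of the members, for Del52 against wild type and Ins5 against wild type, with filled points for the chosen set. B2M sets lie close together. In Del52 against wild type the sets of HLA-B, HLA-E, HLA-F and TAPBP lie on both sides of 0. In Ins5 against wild type those of every member do.

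Whether members varied together over the 9 arrays was read from the 36 pairs that they form. In exact permutation tests over 362880 pairings, 4 pairs passed at an adjusted p under 0.05, and all 4 joined HLA-B, HLA-C, TAP2 and TAPBP. They are the 11.1% of member pairs with r of at least 0.85 in size. This cut is the smallest r of the 4 pairs and so was taken from the members, and 5.41% of all pairs of the 18239 genes reached it. TAP2 and TAPBP, the transporter subunit and its tether, had Pearson r = 0.95 and Spearman rho = 0.93 (exact permutation p = 9.9e-05 and 0.000750, adjusted over the 36 pairs 0.00357 and 0.0270). HLA-C and TAP2 had r = 0.94 and rho = 0.90 (exact permutation p = 0.000383 and 0.00203, adjusted 0.00689 and 0.0365). HLA-C and TAPBP had r = 0.88 and rho = 0.88 (exact permutation p = 0.00156 and 0.00308, adjusted 0.0187 and 0.0369). HLA-B and TAPBP had r = 0.85 and rho = 0.72 (exact permutation p = 0.00448 and 0.0369, adjusted 0.0403 and 0.190), so the rank test did not pass. All of these r values are of the chosen probe sets. Other sets of the same gene correlated with the chosen set at -0.15 to 0.46 for TAPBP and -0.64 to 0.61 for HLA-B. For HLA-C the range was -0.54 to -0.48 and for TAP2 it was 0.59 to 0.84.

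Without the 2 arrays farthest from the median of the first gene, r was 0.82 for TAP2 and TAPBP, 0.87 for HLA-C and TAP2, 0.85 for HLA-C and TAPBP and 0.63 for HLA-B and TAPBP, and none of the 4 pairs passed after adjustment over the 36. B2M had negative r with the same genes, at -0.71 for HLA-C, -0.55 for TAP2, -0.42 for TAPBP and -0.19 for HLA-B, and none of these passed after adjustment. For HLA-C, the strongest, rho was -0.75 (exact permutation p = 0.0288 for r and 0.0255 for rho, adjusted 0.148 and 0.153). Over all 36 pairs r was positive in 22 and negative in 14, with a median of 0.18. The arrays share one normalization, and without wild type 3 only 1 of the 36 pairs passed.

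HLA-C, TAP2 and TAPBP followed the first principal component and B2M ran against it. HLA-B did not pass, at r = 0.65 and rho = 0.57 (exact permutation p = 0.0590 and 0.121, adjusted over 9 members 0.106 and 0.181). The component was taken from the same 9 arrays and holds 70.5% of the variance over all genes. The share of all genes that follow it was not counted, so nothing here sets the members apart in following the component. HLA-C followed it at r = 0.95 and rho = 0.93 (exact permutation p = 9.1e-05 and 0.000750, adjusted over 9 members 0.000818 and 0.00675). TAP2 followed it at r = 0.84 and rho = 0.85 and TAPBP at 0.76 and 0.82, with exact permutation p = 0.00487 and 0.0166 for r and 0.00607 and 0.0108 for rho. B2M ran against it at r = -0.86 and rho = -0.85 (exact permutation p = 0.00351 and 0.00607, adjusted 0.0146 and 0.0182). Without wild type 2 and wild type 3, r was 0.92 for HLA-C, 0.74 for TAP2, 0.76 for TAPBP and -0.75 for B2M, and no member passed after adjustment. Differences between groups held 72.1% of the variance of MICB, 61.5% of HLA-B, 56.8% of HLA-F, 38.5% of HLA-E and 38.3% of TAPBP. They held 32.4% for TAP1, 26.7% for TAP2, 20.0% for B2M and 6.45% for HLA-C. The same share was not taken over all genes, and part of the variance falls between groups of 3 arrays even where the groups do not differ. In the moderated F test MICB had the smallest adjusted p of the 9 members, at 0.676.

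**Figure D5:**
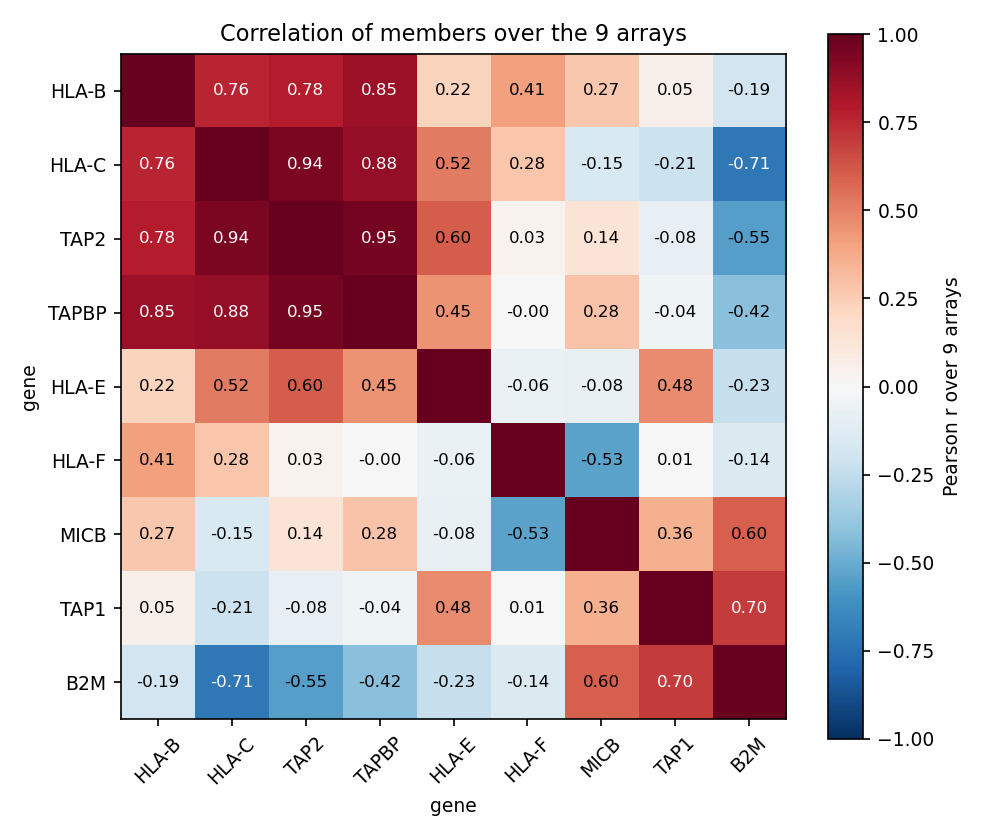
Pearson r over 9 arrays for the 36 pairs of members. All pairs among HLA-B, HLA-C, TAP2 and TAPBP are positive, and B2M is negative against each of them, between -0.71 for HLA-C and -0.19 for HLA-B.

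With the first component as a covariate in the limma fit, 0 members passed in any comparison. TAP2 in Ins5 against wild type then had a log2 difference of 0.21 ± 0.04 (SE, limma adjusted p = 0.0765) and TAPBP one of 0.20 ± 0.04 (adjusted p = 0.0875). HLA-B in Del52 against wild type had 0.13 ± 0.03 (adjusted p = 0.0959), and MICB in Ins5 against wild type had 0.16 ± 0.04 (adjusted p = 0.120). The component was taken from the same arrays.

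Other genes of the loading pathway were counted from lists drawn up beside the members. None of their genes passed limma after adjustment, so the following are values. Of 13 loading partners, 8 were higher in Del52 and 9 in Ins5 than in wild type, against 54.6% and 59.6% of all genes. Their medians were 0.01 for Del52 and 0.05 for Ins5. PDIA3, the isomerase that sits with calreticulin and tapasin, read 9.26, 9.13 and 9.11 in Del52 cells, 9.10, 9.09 and 8.90 in Ins5 cells and 8.58, 8.73 and 8.93 in wild-type cells. It had the smallest p of these 13 genes in both comparisons with wild type. Every Del52 array lay above every wild-type array, as in 6.23% of all genes, and its log2 difference was 0.42 ± 0.10 (SE, limma adjusted p = 0.603). In Ins5 against wild type it was 0.28 ± 0.10 (adjusted p = 0.614), with 1 Ins5 array below the highest wild-type array.

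CANX, which binds new heavy chains before calreticulin, differed by 0.03 in Del52 cells and 0.02 in Ins5 against wild type. ERAP1, which trims peptides in the endoplasmic reticulum, differed by 0.13 in Del52 and 0.15 in Ins5, and ERAP2 by -0.02 in Del52 and 0.06 in Ins5. TAPBPL, a tapasin relative that edits peptides, differed by -0.06 in Del52 and -0.04 in Ins5. All 4 measured immunoproteasome and PA28 genes, which change how proteins are cut into peptides, were higher in both mutants than in wild type, with medians of 0.15 for Del52 and 0.12 for Ins5. Of all genes 54.6% were higher in Del52 and 59.6% in Ins5. Of 5 other proteasome genes listed, 5 were higher in Del52 and 4 in Ins5, with medians of 0.07 for Del52 and 0.05 for Ins5. Among the first 4, PSMB8 differed by 0.21 in Del52 and 0.03 in Ins5, and PSMB9 by 0.16 in each. PSMB8 and ERAP2 averaged 2.63 and 2.76 over the 9 arrays, below the second highest control mean of 4.18. PSME1 differed by 0.07 in Del52 and 0.14 in Ins5, and PSME2 by 0.15 in Del52 and 0.10 in Ins5.

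Among regulators of class I transcription, 8 of 15 measured genes were higher in Del52 and 11 of 15 in Ins5 than in wild type. The shares over all genes were 54.6% and 59.6%. NLRC5, the class I transactivator, averaged 2.84 ± 0.09 in Del52 cells, 2.83 ± 0.13 in Ins5 cells and 2.74 ± 0.04 in wild-type cells (mean ± SD, n = 3). Its mean over the 9 arrays, 2.81, lay below the second highest control mean of 4.18. RFX5, a factor bound at class I promoters, averaged 6.62 ± 0.11 in Del52 cells, 6.72 ± 0.04 in Ins5 cells and 6.65 ± 0.08 in wild-type cells. IRF1, an interferon-induced activator, varied more, at 4.85, 5.36 and 4.84 in Del52 cells, 5.34, 5.37 and 4.93 in Ins5 cells and 5.08, 4.54 and 5.50 in wild-type cells. Of 39 measured interferon-induced genes, 19 were higher in Del52 and 22 in Ins5 than in wild type, against 54.6% and 59.6% of all genes. Their medians were -0.01 for Del52 and 0.01 for Ins5. In Del52 against Ins5, 11 were higher and 28 lower, with a median of -0.04, where 45.4% of all genes were higher.

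Relatives of MICB and other class I chains were also listed. Of 12 measured NK ligands, 7 were higher in Del52 and 10 in Ins5 than in wild type, against 54.6% and 59.6% of all genes. Of the same 12, 1 was higher in Del52 than in Ins5, against 45.4% of all genes. MICA, the closest relative of MICB, averaged 5.39 ± 0.16 in Del52 cells, 5.49 ± 0.13 in Ins5 cells and 5.31 ± 0.14 in wild-type cells, with differences against wild type of 0.07 for Del52 and 0.17 for Ins5. CLEC2D, a ligand of the NK receptor KLRB1, had the smallest p of this list (Ins5 against wild type 0.16, limma adjusted p = 0.573). It averaged 3.84 ± 0.05 in Del52 cells, 3.91 ± 0.04 in Ins5 cells and 3.76 ± 0.05 in wild-type cells. Its mean over the 9 arrays, 3.84, lay below the second highest control mean of 4.18. HLA-G averaged 4.39 ± 0.06 in Del52 cells, 4.46 ± 0.07 in Ins5 cells and 4.34 ± 0.06 in wild-type cells, and none of the 11 other class I and class I-like chains lay above the highest control. The class II genes CIITA and CD74 differed from wild type by -0.08 and 0.01 in Del52 and by -0.04 and 0.04 in Ins5. Their means over the 9 arrays, 4.02 and 3.91, also lay below 4.18.

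The genes whose pattern over the 9 arrays was most like the mean of the members were WDR18 (r = 0.978), SOX4 (0.976), ZBED1 (0.972), EEIG1 (0.971) and ERAP1 (0.970), among 9112 genes above the median level. For single members the most alike gene was SLC35B2 for HLA-B (r = 0.985), DCPS for HLA-C (0.997), MUS81 for HLA-E (0.982) and BORCS5 for HLA-F (0.966). It was APOBEC3F for B2M (0.992), CTNNA1 for TAP1 (0.972), FAM171A1 for TAP2 (0.991), C8orf82 for TAPBP (0.995) and B3GLCT for MICB (0.956). These r values are the highest among 9112 genes over 9 arrays and are given as a description. The mean of the members used values centred but not scaled, so HLA-C, with the widest range (1.28), weighs most in it. WDR18, SOX4, ZBED1, EEIG1 and ERAP1 correlated with the first principal component at r of 0.64 to 0.82.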

How the data were processed

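K562 cells with 3 CALR constructs were measured on 9 arrays, grouped by the calr status label. The values are log2 expression per probe set as the authors deposited them; Partek and RMA made them, per the submitters' processing notes. Their versions were not given in the sources used here. Base 2 was taken from the size of the values, whose highest is 12.2. Arrays give no read depth, so their number limits the precision.

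Of 49386 probe sets, 93 controls were left out. 45253 had 1 symbol in the platform annotation, 1327 several and 2713 none; 45172 matched RefSeq by gene identifier. The set with the highest mean stood for each of 18239 genes, of which 11822 had several sets.

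Genes were fitted with limma 3.58.1 (R 4.3.3) over all 9 arrays with 6 residual degrees of freedom, two-sided, with a Benjamini-Hochberg threshold of 0.05. Correlations used Python 3.11.15 and numpy 2.4.6 with exact two-sided permutation. Both were tested on simulated data. Named genes were all 9 members, a list of loading, transcription and NK genes, and the smallest-p gene of a list where given. The members and all 13 lists were chosen with earlier results of these data known. Some of the 178 list entries were not analysed here. Replicate numbers did not pair the arrays over all 3 groups. Deviations of same-numbered arrays from their group means correlated between -0.92 and 0.64. These r values were positive for Del52 2 with Ins5 2 (0.64) and Del52 3 with Ins5 3 (0.57) and negative elsewhere. On the first principal component Del52 2, Ins5 2 and wild type 3 scored -0.30, -0.27 and -0.57. Del52 3, Ins5 3 and wild type 2 scored 0.27, 0.30 and 0.57 there. The labels name no batch, and whether these arrays shared one was not tested. Alternatives were 2 normalizations, 2 filters on dim genes, the mean of all probe sets, other probe sets, 3 variance models, 6-array fits, a replicate block, the first principal component, other thresholds and arrays left out.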

Additional observations from a re-analysis of the deposited data

How the results depend on the processing

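Over the alternatives 657 member values were recomputed, and 583 kept their direction and their side of the threshold, 70 turned round and 4 passed only with array weights. Array weights gave wild type 1 a weight of 67.0, against 0.24 to 1.82 elsewhere, and called 3190 genes for Del52 against wild type, 4017 for Ins5 against wild type and 5345 in the F test. HLA-B (limma adjusted p = 0.0212 for Del52 and 0.0217 for Ins5), MICB (0.00889) and TAP2 (0.0490, both Ins5) passed there, TAP1 in Del52 against wild type was -0.0121 and HLA-F in Ins5 against wild type 0.0055. Unmoderated variances called 2 genes for Del52 against wild type, 9 for Ins5 against wild type and 1 for Del52 against Ins5. The first principal component as covariate called 4 genes for Del52 and 7 for Ins5 against wild type and 2 in the F test, and an unadjusted p under 0.05 took in 1285 genes for Del52 against wild type, 1351 for Ins5 against wild type and 1052 for Del52 against Ins5. No member passed in the covariate fit. The cause of these shifts was not tested.

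The replicate block called 0 genes in each comparison and in the F test and left the members' medians at 0.08 for Del52 against wild type, 0.13 for Ins5 against wild type and -0.09 for Del52 against Ins5. The labels do not say that same-numbered arrays share a batch, and 0 of 9 arrays correlated best with an array of its own number. A block by position on the first principal component was not fitted. Median centring gave B2M 0.0116 in Del52 against Ins5. With the mean of all probe sets the members' median was 0.031 in Ins5 against wild type and 0.00074 in Del52 against Ins5. HLA-F then was -0.0095 in Del52 against wild type, 0.0101 in Ins5 against wild type and -0.0195 in Del52 against Ins5, and in Del52 against Ins5 B2M was 0.0161, TAP1 0.0247, TAP2 0.0369 and TAPBP 0.0113. Leaving out 1 array at a time, HLA-C ran between -0.19 and 0.45 in Del52 against wild type, -0.0956 and 0.544 in Ins5 against wild type and -0.285 and 0.0727 in Del52 against Ins5, TAP2 between -0.0541 and 0.202 in Del52 against wild type, B2M between -0.0482 and 0.0148 in Del52 against Ins5, and the members' median between 0.0681 and 0.172 in Del52 against wild type. The HLA-C and TAP2 values turned without wild type 3, HLA-C also without Del52 3 (-0.048) in Del52 against wild type, and without Del52 2 (0.073) or Ins5 3 (0.047) in Del52 against Ins5.

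Of 108 values from the other 36 probe sets, 52 had the other sign. In Del52 against wild type these were -0.128 for HLA-B, 0.0023, 0.0458 and 0.0989 for HLA-E, -0.151, -0.106, -0.0976, -0.0194 and -0.00196 for HLA-F and -0.013 for TAPBP. In Ins5 against wild type these were -0.0152 and -0.01 for B2M, -0.0625 and -0.014 for HLA-B, -0.00758 for HLA-C, -0.00265 for HLA-E, 0.0115, 0.0464, 0.0628, 0.0954 and 0.161 for HLA-F, -0.0335 for MICB, -0.0859 for TAP1, -0.0681 and -0.0048 for TAP2 and -0.0645, -0.0286 and -0.0133 for TAPBP. In Del52 against Ins5 these were 0.0024, 0.00863, 0.0345, 0.0468 and 0.0657 for B2M, -0.0657 for HLA-B, 0.0083 and 0.0594 for HLA-C, -0.115, -0.0743, -0.0722, -0.0692, -0.0484, -0.042 and -0.0316 for HLA-F, 0.0222 and 0.0606 for MICB, 0.135 for TAP1, 0.033, 0.0406 and 0.215 for TAP2 and 0.0156, 0.0681 and 0.0945 for TAPBP. None passed after adjustment. Without the 2 farthest arrays none of the 4 correlated pairs passed and 1 other, HLA-E and TAP2, did. Leaving out 1 array gave 1 to 4 pairs, the least without wild type 3 and 2 without Del52 2 or Del52 3. Deviations from group means gave 12 pairs, all 4 among them, with p-values that are too small because deviations within a group are not independent, and residuals on the first component gave 3, of which 1, TAP2 and TAPBP, was among the 4. Arrays give no depth, and the means of TAP2, HLA-C, TAP1, HLA-B and HLA-F lay below the highest antigenomic control.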

Other observations

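The NKG2D ligands ULBP1 and ULBP2, which share their receptor with MICB, varied far more within groups than MICB did. ULBP1 read 4.78, 7.00 and 5.64 in Del52 cells, 7.03, 6.94 and 5.49 in Ins5 cells and 6.98, 4.85 and 7.66 in wild-type cells. ULBP2 read 4.80, 5.58 and 4.57 in Del52 cells, 5.45, 5.62 and 4.59 in Ins5 cells and 5.09, 4.14 and 6.18 in wild-type cells. Both had their lowest or nearly lowest value on wild type 2 and their highest on wild type 3, the arrays at the ends of the first principal component, and their groups overlapped. ULBP3 averaged 2.08 ± 0.05 in Del52 cells, 2.09 ± 0.04 in Ins5 cells and 2.14 ± 0.04 in wild-type cells (SD, n = 3). Its mean over the 9 arrays, 2.10, lay below the second highest control mean of 4.18. Differences from wild type in Del52 were -0.69 for ULBP1, -0.15 for ULBP2 and -0.06 for ULBP3, and none passed limma.

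Of the interferon receptor genes, TYK2, a kinase bound to the type I receptor, averaged 6.38 ± 0.06 in Del52 cells, 6.50 ± 0.06 in Ins5 cells and 6.32 ± 0.10 in wild-type cells, with a limma adjusted p of 0.612 for Ins5 against wild type. IFNAR2, a chain of that receptor, averaged 6.44 ± 0.11 in Del52 cells and 6.61 ± 0.04 in Ins5 cells, a difference of -0.17 (adjusted p = 0.841).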
